A study of Mus musculus with 5 samples.

Results

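Cxxc1 peaks at promoters were examined in CD4+CD8+ double-positive (DP) thymocytes of the mouse, together with H3K4me3 (trimethylation of lysine 4 of histone H3) at the same promoters in WT and Cxxc1-deficient cells. The deposited list of Cxxc1 signal held windows of 200 bp, each with its signal in RPM, the number of tags for every 1000000 that mapped. Windows with at most 2 missing windows between them were joined into a peak. A peak was kept when it lay on an autosome, summed to at most 10 RPM and overlapped the 1 kb on either side of the transcription start site (TSS) of a protein-coding transcript in the mm9 genome build. This gave 415 promoter Cxxc1 peaks out of 4352 Cxxc1 peaks. Another 3909 autosomal peaks of at most 10 RPM lay away from promoters, 6 autosomal peaks exceeded 10 RPM, and 22 peaks lay on chromosomes X, Y or M.

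The series comprised 5 libraries, 1 for each of Cxxc1 ChIP and H3K4me3 ChIP in both genotypes and 1 WT input. The WT mice were Cxxc1 fl/fl, and the Cxxc1-deficient mice were Cxxc1 fl/fl hCD2-Cre, in which Cre removes the floxed exons 4 and 5 of both Cxxc1 copies early in thymocyte development and also in other immune cells. The floxed allele came from 129 ES cells and was backcrossed to C57BL/6, mice were 3 to 4 weeks old unless otherwise specified, and how many mice were pooled for each library was not given in the sources used here. The genotype label of the Cxxc1-deficient libraries reads Cxxc1+/-, a heterozygote, whereas their titles read KO. The 3 lists analysed were those of Cxxc1 in WT cells and of H3K4me3 in each genotype. Depths inferred from their RPM steps were 9090000 to 9140000 tags for Cxxc1 and 9410000 to 9470000 tags for each H3K4me3 list. With 1 library per list there was no replicate check and no test between genotypes. Intervals below are 95% Wilson intervals for shares, exact Poisson intervals for tags and order-statistic intervals for medians, and they cover counting error only, since peaks and genes are not replicates. A place without a listed window has an unknown signal, not a signal of 0, and "marked" means here that an H3K4me3 peak is listed.

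Cxxc1, also called CFP1, carries a CXXC zinc finger that binds DNA containing unmethylated CpG. It is a subunit of the Setd1 complex, which methylates H3K4, and the mark is characteristic of active promoters, most of which lie in CpG islands in mammals. DP thymocytes are the stage at which T cell precursors carry both coreceptors and undergo selection. As a check of the labelled cell type, 11 DP thymocyte markers were looked up in the H3K4me3 lists, and 6 had a WT promoter peak (Cd8a, Cd8b1, Cd3e, Tcf7, Bcl11b and Lck), whereas Cd4, Rag1, Rag2, Cd3d and Themis had none. None of 12 markers of other thymus cells, among them Itgam, Epcam and Foxn1, had one. The Cxxc1-deficient list held 3 of the 11 DP markers (Cd8a, Cd3e and Rag1) and none of the other 12.

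The sequences under the peaks differed widely in CpG content. A 200-bp window of the highest Cxxc1 value in its peak, clear of annotated exons, is shown for 5 loci on the forward strand of mm9, in lower case with every CpG in capitals. Positions are those of the window centre relative to the nearest TSS along the gene, negative upstream. Mpzl1 and Polr1d led the peaks whose gene was marked in both genotypes. Megf9 was among the strongest of those marked in WT only, and Myc is not shown because its windows all overlapped exons. Myt1 and Kcnmb3 led those with neither a CpG island nor a mark.
Mpzl1: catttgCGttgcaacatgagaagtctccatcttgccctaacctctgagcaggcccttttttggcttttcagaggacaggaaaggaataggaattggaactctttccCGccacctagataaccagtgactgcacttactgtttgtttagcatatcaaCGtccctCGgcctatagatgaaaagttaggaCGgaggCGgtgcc
Polr1d: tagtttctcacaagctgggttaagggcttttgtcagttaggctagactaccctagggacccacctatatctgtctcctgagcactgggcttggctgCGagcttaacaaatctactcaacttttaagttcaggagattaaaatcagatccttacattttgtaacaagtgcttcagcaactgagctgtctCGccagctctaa
Megf9: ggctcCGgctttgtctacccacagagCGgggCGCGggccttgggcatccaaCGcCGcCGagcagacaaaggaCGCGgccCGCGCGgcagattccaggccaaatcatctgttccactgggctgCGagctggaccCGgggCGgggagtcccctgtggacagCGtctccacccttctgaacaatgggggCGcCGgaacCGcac
Myt1: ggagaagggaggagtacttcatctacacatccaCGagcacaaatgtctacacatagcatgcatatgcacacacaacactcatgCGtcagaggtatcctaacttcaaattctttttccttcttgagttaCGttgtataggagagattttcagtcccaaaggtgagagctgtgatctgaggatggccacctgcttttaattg
Kcnmb3: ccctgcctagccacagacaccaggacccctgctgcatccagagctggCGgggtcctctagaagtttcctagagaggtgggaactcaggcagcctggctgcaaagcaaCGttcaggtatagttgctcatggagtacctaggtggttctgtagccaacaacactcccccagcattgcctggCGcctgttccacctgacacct
The Megf9 window (chr4:70196201-70196400, between genes, -339 bp) contained 19 CpG at 68.5% GC and held 6 Cxxc1 tags. The Mpzl1 window (chr1:167565201-167565400, between genes, -629 bp) had 6 CpG and 6 tags. Among the windows shown, the Polr1d window (chr5:147891601-147891800, intronic, 2779 bp) had the fewest CpG, 2, and the highest count, 11 tags. The 5 windows were each picked as the strongest of their peak, so they cannot show how CpG and tag number relate. The Myt1 window (chr2:181545601-181545800, intronic, -201 bp) and the Kcnmb3 window (chr3:32391001-32391200, between genes, -210 bp) each contained 3 CpG, with 5 and 6 tags.

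Promoter Cxxc1 peaks were small. Their median strength was 2.0 RPM (interval 1.9 to 2.0), with a median of 19 tags over a median width of 1200 bp, and they ranged from 1.3 to 9.9 RPM and from 12 to 91 tags. Peaks away from promoters had a median of 1.7 RPM and 17 tags at the same median width. The strongest member, just inside the limit of 10 RPM, was Myc at 9.9 RPM. The only promoter peak above the limit was at the Cxxc1 gene itself, with 65 RPM. At the edge of the promoter window, Rai1 and Gm10283 were just inside, with peaks ending 981 and 995 bp from the TSS, and Lrrc4c and Gm5142 just outside, at 1014 and 1015 bp.

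Myc, a transcription factor of growth and proliferation, stood apart from all other members. Its peak at chr15:61818801-61820000 held 91 tags (interval 73.3 to 112) in 6 windows, and the 6 windows carried 0.5, 1.2, 1.6, 2.0, 2.6 and 2.0 RPM along the gene. The nearest annotated TSS was an internal one, and every window overlapped an annotated exon. A further Cxxc1 peak of 5.0 RPM followed at chr15:61820801-61821600, and its 4 windows also overlapped an exon. The 4 windows between the 2 peaks, all intronic, were not listed. Across all members 36% of 2197 listed windows overlapped an exon, and of 331 peaks with at least 4 windows 23 (6.95%) lay on exons with every window. The strength of the other 22 was 1.5 to 2.4 RPM. The Myc promoter was marked in WT with 6.5 RPM (65 tags), mostly upstream of the Cxxc1 windows, and was not listed in Cxxc1-deficient cells. DNA copied from spliced Myc RNA would also lack the intron, and whether it contributes to the 9.9 RPM was not tested, so that value is given with this limit.

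CpG content separated the promoter peaks from the other Cxxc1 peaks. CpG islands were stretches of 500 bp or more in which GC content reached 55% and the ratio of observed to expected CpG reached 0.65. An island was overlapped by 244 of 415 members (58.8%, interval 54.0 to 63.4). Of the 3909 other autosomal Cxxc1 peaks 61 (1.56%, 1.22 to 2.0) overlapped one. Median CpG density was 3.0 per 100 bp (2.5 to 3.39) under members and 1.0 per 100 bp under the others, and median GC content was 53.1% and 46.3%.

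Set against promoters, the difference was smaller. The 2 kb around the 5'-most TSS of all 21410 autosomal protein-coding genes had a median of 3.1 CpG per 100 bp, and 56.4% overlapped a CpG island. The same 2 kb around the TSS nearest to each member had 3.85 CpG per 100 bp (3.6 to 4.2), and 68.4% (63.8 to 72.7) overlapped an island. By gene, 352 of 433 genes with a promoter Cxxc1 peak (81.3%, 77.4 to 84.7) had a CpG island at 1 of their promoters, against 58.4% of all autosomal genes. Genes with a member also had more annotated start sites: 63.0% had more than 1 TSS, against 46.7% of all genes.

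**Figure D1:**
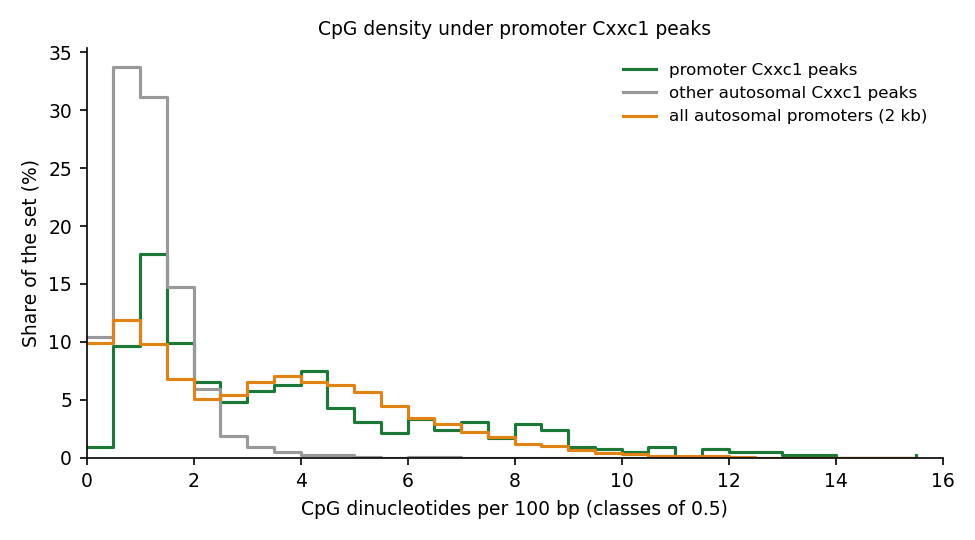
Share of each set (%, vertical axis) in classes of CpG dinucleotides per 100 bp (horizontal axis) for the 415 promoter Cxxc1 peaks, the 3909 other autosomal Cxxc1 peaks and the 2 kb around the 5'-most TSS of 21410 autosomal genes. The other peaks gather near their median of 1.0, whereas promoter peaks spread over the same range as promoters, with a median of 3.0 against 3.1.

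Members with and without an island differed widely in CpG density. The 244 at an island had a median of 4.69 CpG per 100 bp and the 171 without one 1.35 (1.25 to 1.45), against 1.0 (1.0 to 1.06) for Cxxc1 peaks away from promoters. In all, 27.2% of members had an observed to expected CpG ratio under 0.25, against 71.1% of the other peaks and 29.2% of promoters. Within island members the strongest window overlapped the island in 69.3% of 244 cases (63.2 to 74.7), and 65% of all their listed windows did (62.4 to 67.5). The strongest window was denser in CpG than its whole peak in 46.3% of island members (40.2 to 52.6) and 48.0% of the rest (40.6 to 55.4), so that within peaks the highest Cxxc1 value did not mark the CpG-richest stretch.

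Island shares fell along the ranking by Cxxc1 RPM, within counting error. Members were ranked into 4 groups of 103 or 104, and 65.4% of the strongest group (55.8 to 73.8) and 62.5%, 54.8% and 52.4% of the following groups were at an island. The intervals of the first and the last group (42.9 to 61.8) overlapped.

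Short sequence motifs were counted in the 300 bp centred on the strongest window, as exact letters on either strand. GGGCGG, the core of SP family sites, occurred in 23.1% of members (19.3 to 27.4), between 4.63% of the other Cxxc1 peaks and 45.6% of 43968 protein-coding TSS. TATAAA, the TATA box letters, occurred in 7.23%, 15.8% and 9.16% of the 3 sets. TGTGGT, the core recognised by RUNX factors of thymocytes, occurred in 17.1% of members, 24.3% of the other peaks and 14.8% of TSS. CAGGTG, an E-box, occurred in 23.9% of members, the same share as in the other peaks, and in 22.5% of TSS. CCGGAAGT, an ETS family site, was found in 5 members (1.2%), against 4.48% of TSS, and GCGCATGC, part of the NRF1 site, in 2 members (0.482%), against 2.86% of TSS. GGGCGG, CCGGAAGT and GCGCATGC contain CpG themselves, and no position of these letters was matched to a bound factor.

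Cxxc1 windows lay around the TSS, as the choice of members requires, and leaned downstream. The peak covered the TSS in 219 members (52.8%), and the midpoint was upstream of it in 171 (41.2%, 36.6 to 46.0). The strongest window was upstream in 42.4% (37.7 to 47.2), with a median signed position of 163 bp downstream (72 to 250). Its median distance from the TSS in either direction was 650 bp (557 to 714). Only 17.8% of strongest windows were centred within 200 bp of the TSS, and 31.6% were more than 1000 bp away. Island members sat closer, at a median of 543 bp (477 to 628), than members without an island, at 847 bp (749 to 985), and covered the TSS in 61.5% against 40.4%. By annotation, 49.4% of midpoints were intronic, 24.8% exonic and 25.8% between genes. Promoters of more than 1 gene were touched by 21 members, and TSS on both strands by 18, among them the peak shared by Mapk1ip1 and Ppp2r2d.

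**Figure D2:**
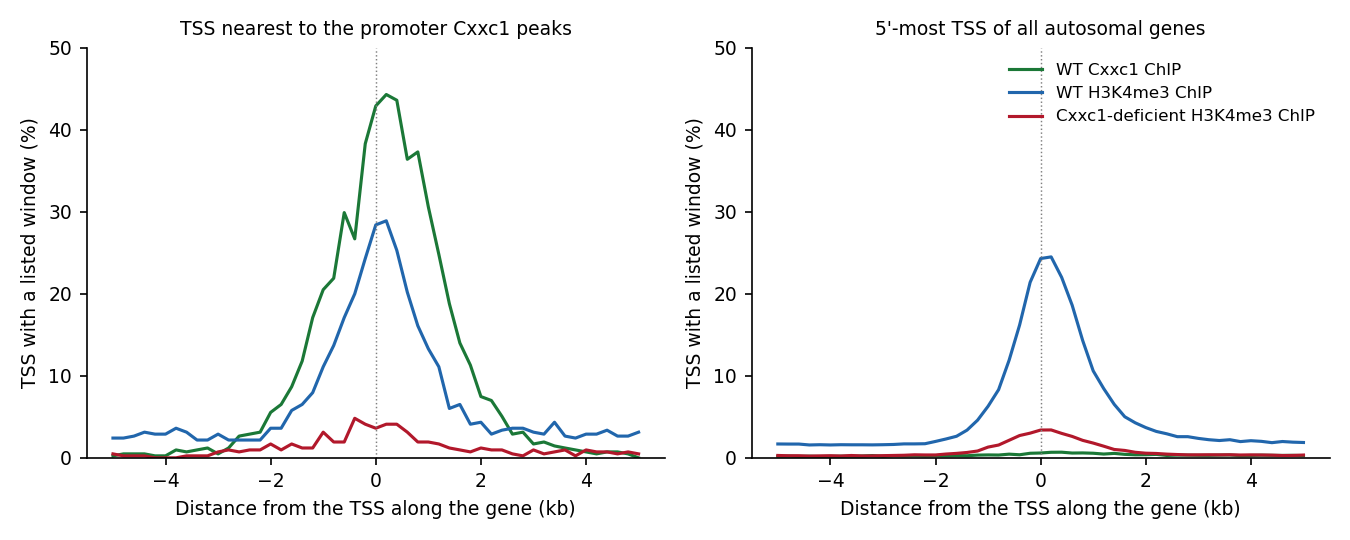
Share of TSS with a listed 200-bp window (%, vertical axis) by distance from the TSS along the gene (kb, horizontal axis) for the 3 lists, at the TSS nearest to the 415 members (left) and at the 5'-most TSS of all autosomal genes (right). At members Cxxc1 reaches 44.3% and WT H3K4me3 28.9%, both 200 bp downstream, while Cxxc1-deficient H3K4me3 stays at or below 4.82%. Members were chosen for a Cxxc1 peak near a TSS, which sets the height of the left Cxxc1 curve there.

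Position by position, Cxxc1 windows were listed at 42.9% of the members' TSS, 44.3% at 200 bp downstream, 30.6% at 1000 bp downstream and 20.5% at 1000 bp upstream. WT H3K4me3 at the same sites was listed at 28.4% of TSS, with 13.3% and 11.1% at 1000 bp downstream and upstream. At all autosomal genes the Cxxc1 share was under 1% throughout, with 0.589% at the TSS and 0.687% at 400 bp downstream, whereas WT H3K4me3 was listed at 24.3% of TSS. Members were chosen for a Cxxc1 peak within 1 kb of a TSS, so their higher Cxxc1 share near it is set by that choice. The WT mark showed no order with the distance of Cxxc1 from the TSS. A WT promoter peak was listed for 34.4% of members whose strongest window was within 250 bp of the TSS (25.6 to 44.3) and for 38.2% of those beyond 1000 bp (30.3 to 46.7).

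The series asks how loss of Cxxc1 relates to H3K4me3, and the genes with a promoter Cxxc1 peak were therefore compared between the genotypes. At like depths the WT list held 14237 H3K4me3 peaks in all and the Cxxc1-deficient list 2979. The 415 peaks touched promoters of 433 genes, 2.02% of autosomal protein-coding genes. A WT H3K4me3 promoter peak was listed for 199 of the 433 (46.0%, 41.3 to 50.7), where the background over all autosomal genes was 32.5%. In Cxxc1-deficient cells 41 (9.47%, 7.06 to 12.6) were marked, against a background of 6.1%. Of the 199 genes marked in WT, 30 (15.1%, 10.8 to 20.7) were also marked in Cxxc1-deficient cells, and the background was 12.8%, which lies inside that interval. A gene counted as marked when a peak was listed at any of its promoters, so the marked promoter can differ between genotypes. The mark was listed only in Cxxc1-deficient cells at 11 genes (2.54%, 1.42 to 4.49), against 1.96% of all genes.

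The WT share was then split by promoter CpG class and by number of start sites. Among genes with a CpG island promoter, 54.0% of those with a member (48.8 to 59.1) and 50.7% of those without one were marked in WT. Without an island the shares were 11.1% (9 of 81, 5.96 to 19.8) and 6.67%. In both classes the value for genes without a member lay inside the interval of those with one. For genes with 1 TSS the WT shares were 37.5% with a member (30.4 to 45.2) and 23.7% without, and for genes with more than 1 TSS 50.9% (interval 45 to 56.8) and 42.0%. When a single TSS per gene, the 5'-most, was used, 39.9% of 348 genes with a member were marked in WT (34.9 to 45.2) against 30.4% of all genes. In these splits by start site the comparison value lay below the interval each time. They did not hold promoter CpG class fixed, so they do not show a difference apart from it.

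The share of WT-marked genes also marked in Cxxc1-deficient cells was next compared within classes of promoter. At CpG island promoters it was 15.3% of WT-marked genes with a member (10.8 to 21.1) and 12.9% of those without. In 3 classes of WT strength, up to 2.2 RPM, up to 3.1 RPM and above, 12.3% (6.37 to 22.5), 19% (11.2 to 30.4) and 14.1% (7.83 to 24.0) of WT-marked genes with a member also had a Cxxc1-deficient peak, and 9.93%, 10.9% and 17.7% of genes without one. In the middle class the value without a member lay just below the interval, and in the other classes inside it. The share rose with WT strength among genes without a member, and showed no such order among the 65, 63 and 71 genes with one. Median WT strength was 2.8 RPM with a member (2.5 to 3.0) and 2.6 RPM over all marked genes. Where both genotypes were listed, the ratio of WT to Cxxc1-deficient RPM had a median of 1.28 with a member (n = 30, 1.15 to 1.53) and 1.36 over all genes. WT was higher in 22 of 30 and in 74.1% of all. These values use the strongest peak of each genotype over all promoters of a gene, so the 2 can come from different promoters. At the promoters that members touched, the median tag ratio was 1.22 (n = 21, 0.957 to 1.36).

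**Figure D3:**
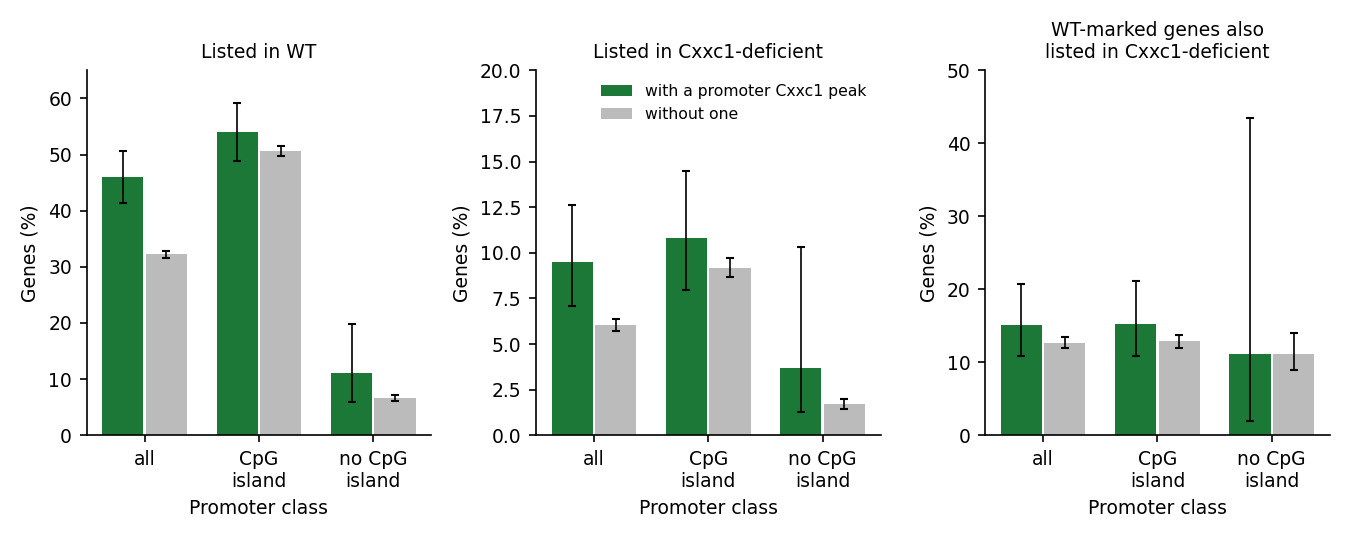
Genes (%, vertical axes) with a listed H3K4me3 promoter peak in WT, in Cxxc1-deficient cells, and in both among WT-marked genes, for genes with (green) and without (grey) a promoter Cxxc1 peak, by CpG class of the promoter. Bars are shares with 95% Wilson intervals: the WT shares are 46.0% and 32.2% over all classes but 54.0% and 50.7% at CpG islands, and the vertical scales differ between panels.

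At the peaks themselves, Cxxc1 and H3K4me3 met at a minority of sites. Of the 415 members 118 (28.4%, 24.3 to 33.0) overlapped a WT H3K4me3 peak, against a background of 6.2% over all autosomal Cxxc1 peaks of at most 10 RPM, members included, and 3.84% of the peaks away from promoters. A Cxxc1-deficient H3K4me3 peak was overlapped by 19 members (4.58%), with a background of 1.09%. At CpG islands 41.4% of members and 41.0% of the 61 other Cxxc1 peaks (29.5 to 53.5) overlapped a WT peak. Away from islands 9.94% of members (6.3 to 15.3) and 3.25% of the other peaks did, so a difference remained there. Members were chosen to lie near a TSS and the other peaks to lie away from one. Over all autosomal genes the WT mark was listed at 24.3% of TSS and at 1.69% of places 5000 bp upstream. That choice favours overlap in members, here and in the shares above. The cause of the difference away from islands was not tested. The strongest windows of an overlapping pair lay a median of 700 bp apart (600 to 800). They coincided in 13 of 118 pairs, and the Cxxc1 window was upstream in 54 and downstream in 51. The strongest Cxxc1 window was itself a listed WT H3K4me3 window in 62 of 118 pairs (52.5%, 43.6 to 61.3).

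Taking only the promoters that each peak touched, 134 members (32.3%) were marked in WT only, 21 (5.06%) in both genotypes, 8 (1.93%) in Cxxc1-deficient cells only and 252 (60.7%) in neither. Over all 21410 autosomal genes, counted at any promoter, 32.5% were marked in WT, 6.1% in Cxxc1-deficient cells and 1.96% in Cxxc1-deficient cells only. Both marks were listed for 888 of these genes. That background is by gene and not by peak, so it is not like for like. An island was present at 79.1% of the 134 (71.5 to 85.1), 15 of the 21, 6 of the 8 and 46.4% of the 252 (40.4 to 52.6). Median Cxxc1 strength was 2.0 RPM for WT only, 2.2 RPM for both and 2.6 RPM for Cxxc1-deficient only, in overlapping ranges. A WT mark was listed at 44.2% of the 104 strongest members (35.1 to 53.8), 34.6% and 42.3% of the middle groups and 28.2% of the 103 weakest (20.4 to 37.5). A Cxxc1-deficient mark was listed at 12.5% (7.45 to 20.2), 5.77%, 7.69% and 1.94% (0.534 to 6.81) of the same groups. Peak strength is a sum over windows, so a wide peak can rank higher and can also touch more promoters. Median width was 2000 bp for members marked in Cxxc1-deficient cells only and 1400 bp for both. It was 1200 bp for WT only and for neither. The shares by strength were not split by width. The 134 promoters marked in WT only had a median of 27.5 WT tags, and 94 of them exceeded the median of 21 tags that listed promoter peaks had in Cxxc1-deficient cells. WT promoter peaks of all autosomal genes had a similar median of 26 tags, with a lower quartile of 20.

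**Figure D4:**
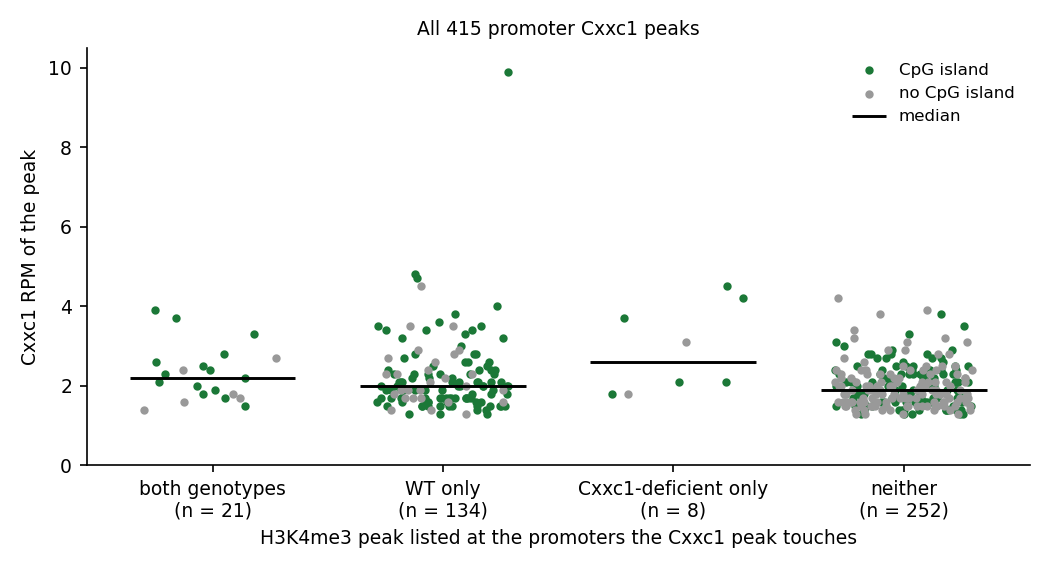
Cxxc1 strength of each of the 415 promoter peaks (RPM, vertical axis) by where an H3K4me3 peak was listed at the promoters it touches (horizontal axis); each point is 1 peak, green at a CpG island and grey elsewhere, and the line is the median. Myc at 9.9 RPM, marked in WT only, is the highest point, and the points of the groups marked in both genotypes, in Cxxc1-deficient cells only and in neither reach 3.9, 4.5 and 4.2 RPM.

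Among the strongest members marked in WT and not listed in Cxxc1-deficient cells, besides Myc, were genes with diverse roles. Megf9, a transmembrane protein with EGF-like domains, had 46 Cxxc1 tags (33.7 to 61.4) over chr4:70194201-70197200 and 33 WT H3K4me3 tags (22.7 to 46.3). Akap12, a scaffold that anchors protein kinase A, had 4.0 RPM of Cxxc1 and 2.4 RPM of WT H3K4me3. Ksr1, a scaffold of the Ras to MAP kinase pathway, had 3.8 RPM of Cxxc1, with its 2.0 RPM of WT H3K4me3 at another promoter of the gene.

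A further set of genes was marked in both genotypes. At Polr1d, a subunit of RNA polymerases I and III, Cxxc1 summed to 3.7 RPM, WT H3K4me3 to 46 tags (33.7 to 61.4) and Cxxc1-deficient H3K4me3 to 38 tags (26.9 to 52.2). The Cxxc1 windows there were centred from 579 bp downstream of the TSS onward, and the H3K4me3 windows ended at 579 bp in WT and 379 bp in Cxxc1-deficient cells. Hic1, a transcriptional repressor, had 2.8 RPM of Cxxc1, 53 WT tags (39.7 to 69.3) and 32 Cxxc1-deficient tags (21.9 to 45.2). Brwd1, a bromodomain protein, had 3.3 RPM of Cxxc1, 38 WT tags and 28 Cxxc1-deficient tags. In these 3 genes WT was higher, with overlapping intervals.

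In others the tag numbers lay closer together or in the opposite order. Mpzl1, a cell surface glycoprotein, had 3.9 RPM of Cxxc1, 18 WT tags (10.7 to 28.4) and 22 Cxxc1-deficient tags (13.8 to 33.3). Dcun1d1, which promotes cullin neddylation, had 22 and 23 tags, and the promoter of Plec, the cytoskeletal linker plectin, that its peak touched had 30 tags in each. Zfp286, a zinc finger gene, had 18 and 14 tags. Zmynd8, a chromatin reader, carried its marks of 2.3 and 2.0 RPM at another promoter than the Cxxc1 peak. Over all 21 members marked in both at the promoters touched, WT was higher in 13, lower in 6 and equal in 2, with a median tag ratio of 1.22 (0.957 to 1.36). The Poisson intervals of the 2 genotypes were apart at 1 promoter only, that of Pxmp4, a peroxisomal membrane protein chosen here after its values were seen. No such count over all promoters marked in both genotypes is given here, so this one has no background to be read against. Pxmp4 had 25 WT tags (16.2 to 36.9) and 57 Cxxc1-deficient tags (43.2 to 73.9).

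Among genes listed only in Cxxc1-deficient cells, Entpd4, a nucleotide-hydrolysing enzyme of the Golgi and lysosomes, had 4.5 RPM of Cxxc1 over chr14:69952801-69957000 and 28 tags of Cxxc1-deficient H3K4me3 (18.6 to 40.5). Mapk1ip1, which shares its peak with Ppp2r2d, a regulatory subunit of protein phosphatase 2A, had 4.2 RPM and 21 tags. Sec14l1, of a lipid-binding family, had 3.7 RPM and 23 tags (14.6 to 34.5), and Cnr2, the cannabinoid receptor of immune cells, 3.1 RPM and 17 tags (9.9 to 27.2). These 4 values lay on both sides of the median of 21 tags for listed promoter peaks of that library. Myt1, a zinc finger factor of the nervous system, had 4.2 RPM of Cxxc1 and no listed mark in either genotype.

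**Figure D5:**
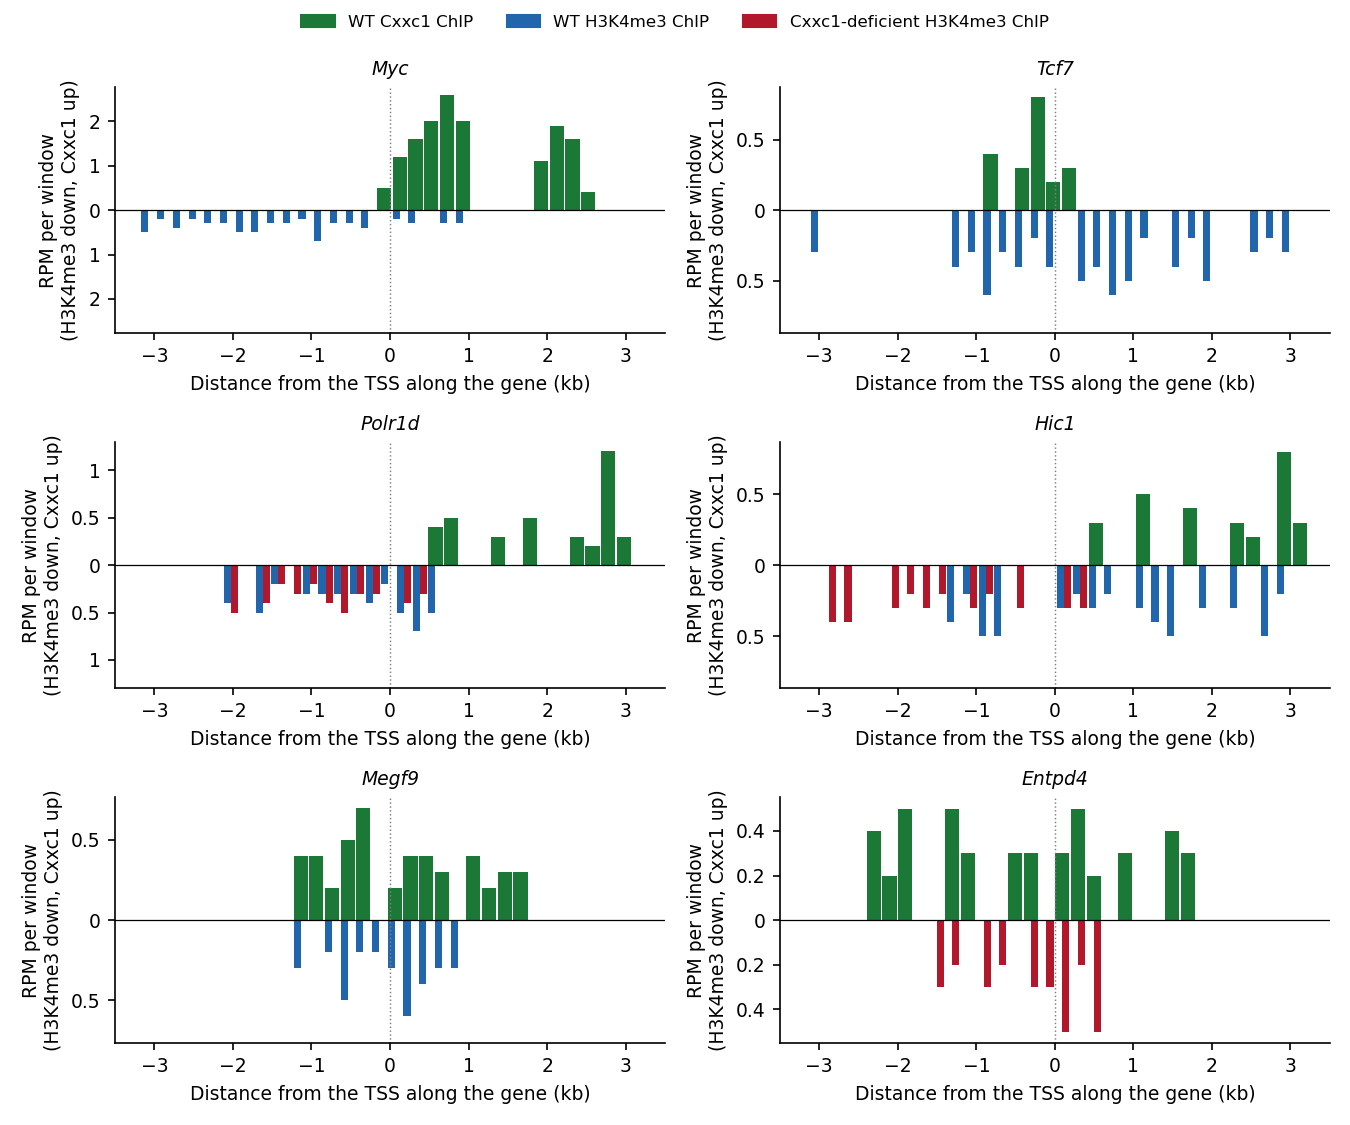
RPM per 200-bp window (vertical axis, Cxxc1 drawn upward and H3K4me3 downward) by distance of the window from the nearest TSS along the gene (kb, horizontal axis) at 6 members, with a separate vertical scale for each; places without a bar are not listed. Myc shows Cxxc1 on 2 exon blocks with H3K4me3 in WT only, Tcf7 a broad WT domain of 9.9 RPM around 2.0 RPM of Cxxc1, Polr1d and Hic1 both genotypes, Megf9 WT H3K4me3 alone and Entpd4 Cxxc1-deficient H3K4me3 alone.

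Gene groups were read against the 2.02% of autosomal genes with a member. The groups were not matched to that base by promoter CpG class or number of start sites. A CpG island promoter was present at 81.3% of genes with a member and 58.4% of all genes. The counts per group are small, so no share below is read as an excess or a lack. None of 40 T cell receptor signalling genes, 21 apoptosis and survival genes, 17 Setd1 and MLL complex genes, 34 translation factors or 44 proteasome subunits had a promoter Cxxc1 peak. Of 34 thymocyte transcription factors only Tcf7 did (2.94%). Its windows were centred from -820 bp to 180 bp of the TSS and held 2.0 RPM (19 tags, 11.4 to 29.7) at 8.58 CpG per 100 bp. TCF-1, its product, is a factor of T cell commitment. The Tcf7 promoter had the highest WT H3K4me3 value of any member, 9.9 RPM (99 tags, 80.5 to 121), and was not listed in the deficient library.

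Of 64 chromatin genes 4 had a member (6.25%), and all 4 were marked in WT, as were 44 of the 64. Suz12, a subunit of the Polycomb repressive complex 2, had 1.5 RPM of Cxxc1 and 3.2 RPM of WT H3K4me3. Kdm1a, a demethylase of H3K4, had 1.3 RPM, the lowest value among members, at 11.5 CpG per 100 bp, and 2.4 RPM. Neither was listed in Cxxc1-deficient cells. Dnmt3a, a de novo DNA methyltransferase, had 2.3 RPM of Cxxc1 at a promoter without a mark, and its mark of 4.7 RPM in WT and 1.7 RPM without Cxxc1 lay at others. These are 47 tags (34.5 to 62.5) and 17 tags (9.9 to 27.2), with intervals apart. Each is the strongest peak over all promoters of Dnmt3a, so the 2 can come from different promoters. How often such intervals lie apart over all genes marked in both genotypes is not given here, so Dnmt3a has no background. Hdac7, a histone deacetylase expressed in thymocytes, had 1.7 RPM of Cxxc1, 24 WT tags and 19 Cxxc1-deficient tags at the promoter touched. Over all promoters of Hdac7 the strongest WT peak had 58 tags (44 to 75), and the Cxxc1-deficient peak 19 (11.4 to 29.7).

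Of 61 splicing and RNA processing genes 4 had a member (6.56%), and all 4 were marked in WT, as were 43 of the 61. Lsm4, of the U6 snRNP ring, had 3.4 RPM of Cxxc1 and 3.0 RPM of WT H3K4me3, and Snrpd3, a core Sm protein, 1.9 RPM and 3.0 RPM. Cwc15, a spliceosome component, shares with Kdm4d a peak of 1.3 RPM and 1.6 RPM of WT H3K4me3. These 3 were not listed in Cxxc1-deficient cells. Prpf6, of the U4/U6.U5 particle, had 2.1 RPM of Cxxc1 and was marked in both, with 3.0 RPM in WT at another promoter of the gene and 1.5 RPM without Cxxc1 at the promoter touched. Of 62 cell cycle genes 2 had a member, Myc and Cdk4. Cdk4, the G1 kinase partner of cyclin D, had 2.3 RPM of Cxxc1, 26 WT tags (17.0 to 38.1) and 16 Cxxc1-deficient tags (9.15 to 26.0).

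Larger families were counted in the same way. Of 79 ribosomal protein genes 2 had a member (Rpl13 and Rpl27a), of 77 mitochondrial ribosomal protein genes 1 (Mrpl53), of 356 solute carriers 8 (2.25%), of 386 zinc finger genes of the Zfp series 5 (1.3%), and of 208 Tmem genes 3. Of 63 genes for ubiquitin-conjugating enzymes and ubiquitin-specific proteases 1 did, Usp24. None of 67 histone genes and none of 320 vomeronasal receptors did, and of 1106 olfactory receptors only 2; a WT mark was listed for 1 gene of that class. The last pair of families was counted after the member names had been read. Of 91 potassium channel genes 6 had a member (6.59%), among them Kcna2, Kcnab3, Kcnd3 and Kcnmb3. Of the 6, 2 were marked in WT, as were 17 of the 91, and none in Cxxc1-deficient cells. Of 163 homeobox and related developmental factors 5 did (3.07%: Foxn3, Hmx2, Hoxa9, Lhx3 and Nkx2-3), 4 of them marked in WT, as were 59 of the 163, and none in Cxxc1-deficient cells. By chromosome, from 1.35% of genes on chromosome 9 to 2.74% on chromosome 3 had a member.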

How the data were processed

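Cxxc1 and H3K4me3 ChIP-seq libraries of DP thymocytes were analysed from the lists the authors deposited. As the methods describe, 50-bp reads were processed with CASAVA 1.8.2 and mapped to mm9, uniquely mapped reads were kept, and SICER 1.1 called enriched regions, with input and the Cxxc1-deficient ChIP as controls. The aligner, the treatment of duplicates and the control for H3K4me3 are not given in the sources used here. The deposited values are RPM, tags per 1000000 mapped tags, for each 200-bp window of a called region, rounded to 1 decimal. The Cxxc1 ChIP of Cxxc1-deficient cells and the input were not analysed here. No genotype stands in the name of the Cxxc1 list, which was taken as WT from the methods.

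Peaks were joined as stated in the report, and peak strength is the sum of window values. The RPM of 1 tag (0.1094 to 0.11 for Cxxc1, 0.1056 to 0.1062 for H3K4me3) was inferred from which decimals occur up to 2.0 RPM, and tags were recovered window by window. Genome sequence was NCBIM37, the assembly of mm9, and genes were GENCODE vM1, both from the reference provided. Promoters were 1 kb either side of every protein-coding TSS, overlap was at least 1 bp, and CpG islands were unions of qualifying 500-bp stretches (20436 on 19 autosomes). No gene-level test was made, since each list had 1 library. Steps were checked on planted peaks and a planted island. Python 3.11.15, numpy 2.4.6, pandas 2.3.3, scipy 1.17.1 and matplotlib 3.10.9 were used.

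Genes named are, by Cxxc1 RPM, the 8 strongest members, the 8 strongest marked in both genotypes, the 6 strongest marked in WT only, the 4 strongest in Cxxc1-deficient only, members of gene lists given by name (up to 15) and those at the limits. Some genes that this rule names, and a sequence, are not reported here. The members, gene lists and rules were chosen with earlier results of these data known. Alternatives tried were the joining gap, promoter width, TSS set, midpoint rule, the stronger 50% of peaks, the island definition and the H3K4me3 overlap rule.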

Additional observations from a re-analysis of the deposited data

How the results depend on the processing

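No paired analysis was possible because there was 1 library in every group, and no replicate could be left out. For 10 results 68 alternatives were computed, of which 42 lay within the main value's interval or, for counts, within 1.5 times it. Joining without missing windows gave 725 peaks, of which 49.8% were at a CpG island and 22.8% overlapped a WT H3K4me3 peak, with a median of 529 bp from the TSS. The stronger 50% of peaks gave 207 peaks and 214 genes by construction, with 64.3% at an island and 34.8% overlapping a WT peak. A promoter half-width of 500 bp gave 68.7% at an island, 3.71 CpG per 100 bp, 478 bp and 34.4% overlapping a WT peak. A half-width of 2 kb gave 45.7%, 2.1 CpG per 100 bp and 955 bp. With the 5'-most TSS only, 66.3% were at an island at 3.5 CpG per 100 bp, and 39.9% of genes were marked in WT. With the midpoint inside the promoter, the values were 70.2%, 4.14 CpG per 100 bp, 446 bp and 33.0%. The looser island definition of 200 bp gave 68.2%. With H3K4me3 required at the Cxxc1 peak itself, 29.3% of genes were marked in WT and 5.08% in Cxxc1-deficient cells, and with H3K4me3 required at a promoter the peak touches, an alternative chosen after seeing the data, 38.1% were marked in WT. The cause was not tested where the wording of an alternative does not fix it. The share centred upstream and the share of WT-marked genes also marked in Cxxc1-deficient cells stayed inside their intervals under every alternative run for them. Peaks of 12 to 20 tags are near the limit of what these depths list.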

Other observations

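Cxxc1 peaks at promoters on the X chromosome were not among the 415. They lay at Htr2c (1.6 RPM), a serotonin receptor, Huwe1 (1.5 RPM), a ubiquitin ligase, Sh3kbp1 (2.1 RPM), an endocytic adaptor, and Tspan6 (1.6 RPM), a tetraspanin. Kcnt1, a sodium-activated potassium channel, named here after its values were seen, carried 2 of the 415 peaks, of 2.3 and 1.6 RPM, at different promoters, and neither genotype had a listed mark there.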
